A study of Gallus gallus with 51 samples.

Results

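The zinc finger genes described here are the gene probes whose name on the array begins with ZNF, ZFP or ZF, which held for 172 of 1509 gene probes. The name alone chose them, so the group also holds proteins with RING, MYM or RNA-binding zinc fingers and leaves out zinc finger genes that carry another name. Of the 172 probes, 112 were bright enough to enter the tests and 60 were among the 227 dimmest gene probes and were left out. Dim probes made up 34.9% of this group, 15% of all gene probes and 12.5% of the gene probes outside the group. At its edge, ZNF137 had a mean log2 intensity of 8.74 and was left out, and ZNF151 had 8.76 and was tested.

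The RNA came from the sensory epithelium of the chicken (Gallus gallus) cochlea, which holds hair cells among supporting cells and was dissected from organ cultures of young chicks. In the neomycin groups the cultures spent 24 hr with this aminoglycoside, which is toxic to hair cells, and were collected at 0 hr, 24 hr or 48 hr of recovery in medium without the drug. The control groups were cultures of the same age kept without neomycin. Every two-colour array set amplified neomycin RNA against its time-matched control RNA, each from pooled epithelia, with 17 arrays at 0 hr, 16 at 24 hr and 18 at 48 hr. Each time point had 3 biological replicates, and the 4 to 8 arrays of a replicate were technical copies with neomycin in Cy3 or in Cy5. The probes were designed to human genes, and the chicken RNA was hybridised across species. All values are log2 ratios of neomycin over control signal, so that positive values mean more signal from the neomycin RNA.

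A classical C2H2 zinc finger is a short loop held by a zinc ion, and rows of such fingers read DNA sequence. Most human ZNF genes encode proteins of this kind, and the largest class joins the fingers to a KRAB domain, which recruits the corepressor TRIM28 and silences chromatin. Other classes carry a SCAN domain or a BTB/POZ domain, both of which pair proteins with each other. KRAB genes arise and disappear rapidly in evolution, so that many human members have no single partner in birds.

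A few facts of the whole series bear on every value below. Over the 51 arrays the median spot signal lay between 459.7 and 3636 in the Cy3 channel and between 261.5 and 3190 in the Cy5 channel. The image header named the dye of the suffix for neomycin on 51 of 51 arrays. On 1 array, suffix 5 array 2 of 0 hr replicate 3, the ratios ran against the rest of its replicate, with correlations over the tested probes of -0.64 with the suffix 3 array and -0.28 and -0.26 with the other suffix 5 arrays. The hair cell marker POU4F3 exceeded the negative controls in control RNA on 23.5%, 25.0% and 55.6% of arrays at 0, 24 and 48 hr. In neomycin RNA it was 17.6%, 25.0% and 55.6%. The hair cell markers ATOH1 and GFI1 exceeded the controls in control RNA on 11.8%, 6.25% and 27.8% and on 5.88%, 25.0% and 27.8%. SOX2, a marker of supporting cells, did so on 47.1%, 81.2% and 5.56%, EYA1 on no array, and the neuronal marker POU4F1 on 88.2%, 37.5% and 100%. The other neuronal markers were seen less often, NEUROD1 on 11.8%, 6.25% and 38.9% and ISL1 on 5.88%, 6.25% and 5.56%. Only some of the tissue's defining markers were thus seen, and EYA1 and PAX2, 2 genes of the developing inner ear, were at or near 0. In such bulk samples, fewer cells of a type and less RNA per cell cannot be told apart.

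Few zinc finger probes stayed above nearly all spots of unrelated control oligonucleotides on most arrays. A probe was counted as above the negative controls when its signal exceeded the 95th percentile of the spots of 19 control oligonucleotides, on the same array and in the same dye, on at least 80% of the arrays of a time point. At 0 hr, 6 of 172 zinc finger probes met this in either RNA (3.49%), against 6.63% of all 1509 gene probes. At 24 hr it was 1 probe (0.581%, against 1.99%), and at 48 hr it was 3 (1.74%, against 4.97%). Taken by RNA, 4 passed at 0 hr with neomycin and 5 without, where 4.24% and 6.36% of all gene probes passed. They were 1 and 1 at 24 hr (1.33% and 1.92% of all) and 2 and 2 at 48 hr (3.11% and 4.51% of all). By their names, some of the control oligonucleotides are mismatch variants of others. The brightest control spots set this limit, so a probe that fails it can still exceed most of them. The study set its cut-off on control spots in another way and called many more genes detected. These counts therefore cannot be set against its own.

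ZNF10, a KRAB protein whose repression domain is the one most used in laboratory repressors, exceeded the controls most often. It did so at 0 hr on 16 of 17 arrays with the neomycin RNA and on 17 of 17 with the control RNA. At 24 hr the counts were 14 and 16 of 16, and at 48 hr 10 and 16 of 18. The control RNA thus passed at all 3 times and the neomycin RNA at the first and the second. ZNF6, now called ZNF711 and a partner of the histone demethylase PHF8 in human cells, passed in control RNA at 0 hr (15 of 17 arrays) and in neomycin RNA at 48 hr (16 of 18). Its counts in the other RNA were 13 of 17 and 10 of 18, and at 24 hr it exceeded the controls on 7 and 6 of 16 arrays.

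The remaining probes that passed did so at a single time point. At 0 hr, ZNF38, a SCAN protein now called ZSCAN21, exceeded the controls on 16 of 17 arrays with neomycin RNA and on 15 with control RNA. The SCAN protein ZNF174 did so on 15 and 17 arrays. ZFP91, a ubiquitin ligase, reached 14 arrays with neomycin and 12 without, and ZNF76, a relative of the small nuclear RNA gene activator ZNF143, reached 9 and 14. At 48 hr, ZNF239 exceeded the controls on 15 of 18 arrays in both RNAs, after 6 and 6 of 17 at 0 hr and 5 and 3 of 16 at 24 hr. ZNF43, ZNF93 and ZNF79, all KRAB proteins, complete the 10 most often seen, and each stayed below 80% at every time point. Over all array channels (51 arrays by 2 RNAs), these 10 probes exceeded the controls in between 37.3% for ZNF79 and 87.3% for ZNF10.

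**Figure D1:**
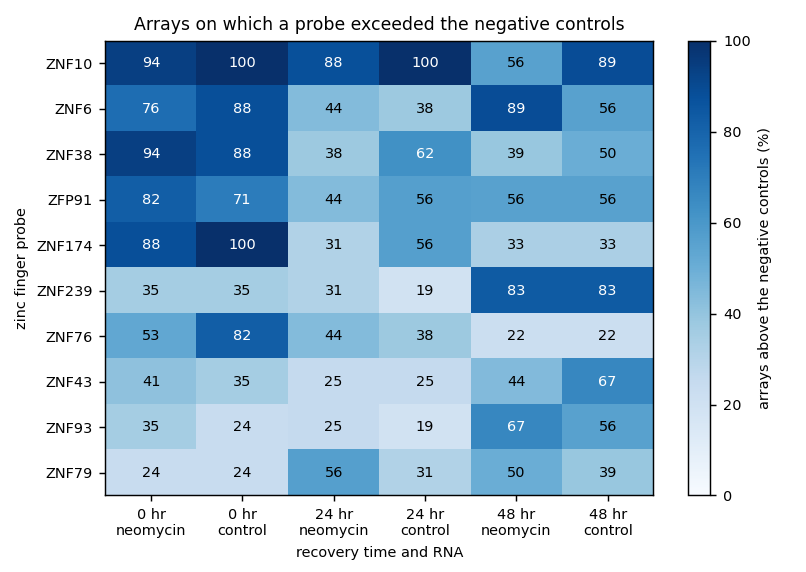
Percent of arrays on which each of the 10 most often detected zinc finger probes exceeded the negative controls, by recovery time and RNA (17, 16 and 18 arrays at 0, 24 and 48 hr). ZNF10 lies at 87.5% or more in every column but neomycin RNA at 48 hr (55.6%), and ZNF239 reaches 83.3% only at 48 hr.

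The other end of the range was wider. At 0, 24 and 48 hr, 77, 55 and 65 of the 172 probes exceeded the controls on no array in either RNA, which is 44.8%, 32% and 37.8%, against 17.2%, 23.9% and 18% of all gene probes. Over all 3 times, 17 of 172 (9.88%) never did, against 4.84% of all gene probes. Of these 17, 4 were bright enough to be tested, namely ZNF8, ZNF74, ZNF173 and ZNF361. ZNF8 and ZNF361 are named here after their values were seen. Both RNAs exceeded the controls on at least 1 array for 61, 69 and 73 of the 172 (35.5%, 40.1% and 42.4%, against 67.6%, 61.6% and 71% of all gene probes). By class, 8 of 55 KRAB probes, 0 of 20 SCAN probes, 0 of 9 BTB/POZ probes and 2 of 8 RING finger probes never exceeded the controls. Of the 60 probes left out as dim, 47 exceeded the controls on at least 1 array and 13 on none. Where only one RNA ever exceeded the controls at a time point, the lower limit of the fold was under 1, so no fold is given for those probes.

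A match of the probe name, its current human symbol or a synonym was found in the RefSeq annotation of the chicken genome (GRCg7b) for 49 of 172 probes. The matched probes exceeded the controls in a median of 4 array channels and the 123 unmatched probes in a median of 4 as well. Of the 49, 4 never exceeded the controls, and of the 123, 13 never did. Seen at 80% of arrays at any time were 3 matched probes (ZNF6, ZFP91 and ZNF76) and 4 unmatched ones (ZNF10, ZNF38, ZNF174 and ZNF239).

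The comparison of neomycin with control asks which zinc finger genes changed at each recovery time. By limma over the 9 biological replicates, with Benjamini-Hochberg adjustment over all 1282 tested probes, 0 of 112 zinc finger probes passed at 0, 24 or 48 hr, and 0% of all tested probes passed. Among zinc finger probes the smallest adjusted p by limma was 1.00, 0.588 and 0.784 at the 3 times. At an unadjusted p under 0.05, 1 of 112 was lower at 0 hr and 0 were higher (2.03% and 0.936% of all tested probes, 2.96% in both directions). At 24 hr, 2 were higher and 3 lower (2.18% and 6.16% of all, 8.35% in both directions), and at 48 hr, 2 were higher and 0 lower (1.87% and 2.65% of all, 4.52% in both directions). The zinc finger probes had median log2 ratios of 0.03, 0.06 and 0.12 at 0, 24 and 48 hr, beside -0.01, 0.00 and -0.02 over all tested probes. Changes between times did not pass either, at 0 of 112 in each of the 3 contrasts, where 0% of all tested probes passed. At an unadjusted p under 0.05, 5 zinc finger probes were higher and 1 lower in 48 hr minus 24 hr (1.95% and 2.03% of all tested probes, 3.98% in both directions). In 24 hr minus 0 hr it was 0 in each direction (0.624% and 0.702% of all, 1.33% in both) and in 48 hr minus 0 hr 0 as well (0.546% and 0.936% of all, 1.48% in both). The smallest adjusted p was 0.998 for 24 hr minus 0 hr, 0.848 for 48 hr minus 24 hr and 0.998 for 48 hr minus 0 hr.

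These counts hinge on the biological replicate as the unit. With every array as a unit and the biological replicate as a random block, ZNF174 and ZNF10 passed at 24 hr, lower with neomycin, with adjusted p of 0.0241 and 0.0329 by limma (2.65% of all tested probes passed there). With the quantification date of the images as the random block instead, the same pair and ZNF200 passed at 24 hr (5.69% of all), and ZNF41, ZNF234, ZNF16, ZNF160 and ZNF151 passed at 48 hr, higher with neomycin, with adjusted p from 0.0214 to 0.0409 (3.28% of all). That last fit counts technical copies as independent samples unless they share a date.

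The probes with the smallest p at 24 hr were ZNF174, ZNF10 and ZNF74. ZNF174 had log2 ratios of -0.45, -2.41 and -0.61 in replicates 1, 2 and 3. All replicates were below 0 and replicate 2 stood far under the others. The mean was -1.16 ± 1.09 (SD, n = 3), with an adjusted p of 0.588 by limma. ZNF10 had 0.00, -4.49 and -1.43, a mean of -1.97 with the same adjusted p. Replicate 2 was low on each of its 4 arrays, from -5.79 to -3.03, replicate 3 ran from -1.92 to -0.87, and the 8 arrays of replicate 1 spread around 0 from -0.68 to 0.68. ZNF74, a KRAB protein, had 0.43, -0.04 and 0.63, but its signal never exceeded the negative controls in either RNA at any time, and the 0.63 came from 1 array at 2.68 and was -0.06 without it.

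The probes seen most often differed widely between biological replicates of one time. At 0 hr, ZNF10 had log2 ratios of 0.01, -1.94 and -1.69, and at 48 hr -1.34, 0.46 and -0.12. The spread of the copies differed between replicates: the 6 arrays of 0 hr replicate 2 ranged from -2.27 to -1.54 and the 8 arrays of 48 hr replicate 1 from -2.17 to -0.78. In 0 hr replicate 3, the 4 arrays gave -3.71, -3.52, 3.92 and 0.61, and the value of 3.92 came from the array whose ratios ran against the others. For ZNF38, which the same array also gave the opposite sign (3.79), the 0 hr mean was -1.01 without that array and -1.11 with its sign turned, against -0.69 as measured. ZNF10 also had a saturated spot on 6 of the 51 arrays, the only zinc finger probe with any.

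ZNF38 and ZNF174 were lowest in 24 hr replicate 2, as ZNF10 was. ZNF38 had -0.20, -0.27 and -1.59 at 0 hr, 0.17, -2.90 and -0.07 at 24 hr, and -0.72, 0.01 and -0.26 at 48 hr. ZNF174 had -0.10, -0.36 and -1.35 at 0 hr and -0.16, 0.12 and -0.04 at 48 hr. Both were next lowest in 0 hr replicate 3, and all 4 arrays of 24 hr replicate 2 lay below 0 for each. ZNF6 shared the low value in 24 hr replicate 2 (-1.48) but had 0.81 in 24 hr replicate 3 and in 0 hr replicate 2. In 24 hr replicate 2 the correlation across probes between log2 ratio and mean intensity was -0.57 in the 112 zinc finger probes and -0.45 in the 1170 others. Its part in these low values was not tested, and probes of one array are not independent of each other.

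**Figure D2:**
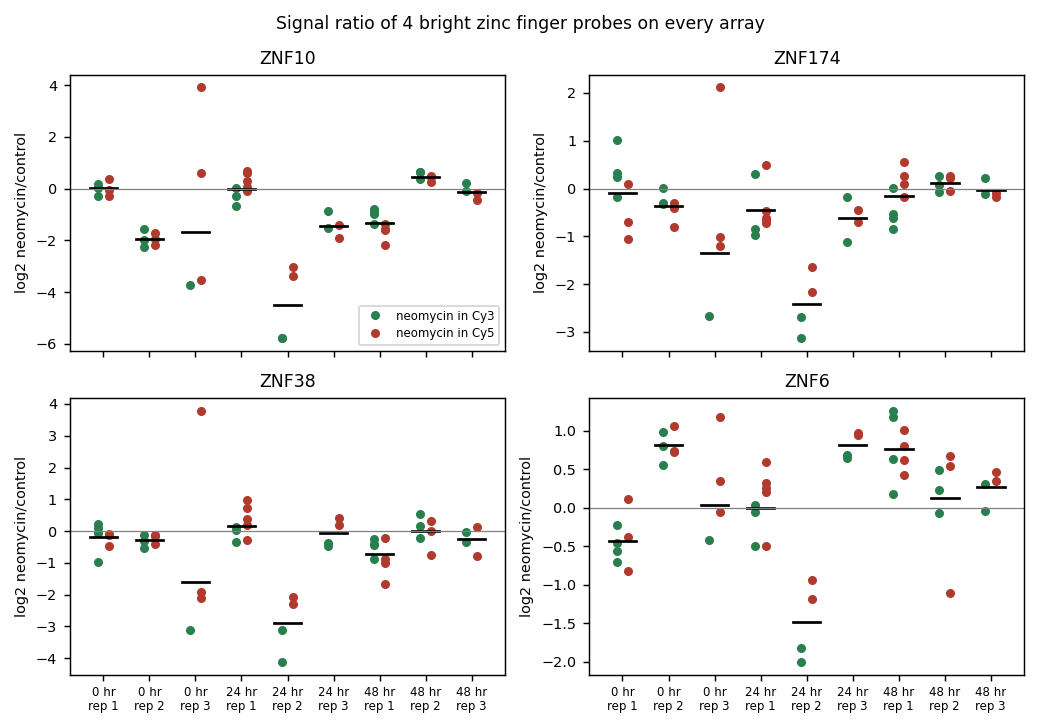
Log2 neomycin over control ratio of ZNF10, ZNF174, ZNF38 and ZNF6 on each of 51 arrays, with green for neomycin in Cy3, red for neomycin in Cy5 and a black bar for the replicate value. The bars of ZNF10 run from -4.49 in 24 hr replicate 2 to 0.46 in 48 hr replicate 2, and the lone high red points of ZNF10 and ZNF38 in 0 hr replicate 3 (3.92 and 3.79) come from one array.

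At 0 hr the smallest p belonged to ZNF76, with log2 ratios of -0.78, -0.31 and -0.50, all below 0. The mean was -0.53 ± 0.23 (SD, n = 3), with an adjusted p of 1.00 by limma. Without the array that ran against its replicate it was -0.57. The same probe had 0.59, -0.55 and -0.02 at 24 hr and -0.17, 0.14 and 0.12 at 48 hr, so its replicates overlapped 0 at both later times. ZNF288, now ZBTB20, a BTB repressor, and the KRAB protein ZNF7 followed at 0 hr with means of -0.29 and 0.32. At 48 hr the smallest p belonged to ZNF41 (0.91, 0.18 and 0.11), ZNF160 (1.16, 0.22 and -0.01) and ZNF234 (1.12, -0.05 and 0.22). Each took most of its mean from replicate 1, and without that replicate their 48 hr means were 0.14, 0.10 and 0.08.

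Between times, the smallest p in 48 hr minus 24 hr belonged to ZNF138, ZNF254 and ZNF268. ZNF138 had -0.22, -0.24 and -0.38 at 24 hr and 0.08, 0.31 and 0.23 at 48 hr. The replicate values of the times did not overlap, but the 0.31 of 48 hr replicate 2 came from 1 array at 2.09, with 4 of its 6 arrays below 0, and was -0.08 without that array. The difference was 0.48 with an SE of 0.17 and an adjusted p of 0.848 by limma. ZNF254, a KRAB protein, had -0.04, -0.31 and -0.58 at 24 hr and 0.69, 0.03 and 0.06 at 48 hr. ZNF268, another, went the other way, from 0.37, 0.79 and -0.04 to -0.62, -0.14 and 0.02, where the groups overlapped. The smallest p in 24 hr minus 0 hr belonged to ZNF76, ZNF74 and ZNF278, the last now PATZ1, a BTB protein, with differences of 0.53, 0.36 and 0.35. In 48 hr minus 0 hr it was ZNF160, ZNF147 and ZNF76, with differences of 0.63, 0.38 and 0.56.

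A second way to ask the question was to count probes whose direction held in all 6 means of a time point, 3 replicates by both dye suffixes. At 0 hr, 3 of 112 zinc finger probes were higher in all 6 (2.68%, against 0.936% of all tested probes) and 2 were lower (1.79%, against 1.48%, or 2.42% in both directions). At 24 hr, 4 were higher (3.57%, against 2.42%) and 3 lower (2.68%, against 4.37%, or 6.79% in both directions). At 48 hr, 3 were higher (2.68%, against 1.87%) and 0 lower (against 2.34%, or 4.21% in both directions). No zinc finger probe held its direction in all 6 means at more than 1 time. Of these 15 probes, 8 kept the sign of all 3 replicate values with any 1 array left out, namely ZNF7, ZNF-kaiso, ZNF38, ZNF288, ZNF226, ZNF304, ZNF174 and ZNF41. Over the 3 replicate values alone, 26 zinc finger probes were above 0 and 18 below 0 in all 3 at 0 hr (23.2% and 16.1%, against 11.8% and 11.5% of all tested probes, or 23.2% in both directions). At 24 hr it was 16 and 8 (14.3% and 7.14%, against 13.1% and 13.7%, or 26.8%), and at 48 hr 23 and 2 (20.5% and 1.79%, against 14.4% and 16.1%, or 30.5%).

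At 0 hr the probes higher in all 6 were ZNF7 (0.41, 0.46 and 0.10), the KRAB protein ZNF211 (0.12, 0.63 and 0.09) and ZNF-kaiso (0.13, 0.17 and 0.36). ZNF-kaiso, now ZBTB33, is a BTB protein that binds methylated DNA. ZNF7 stood highest in replicate 2 and lowest in replicate 3. The lower ones were ZNF38, carried by replicate 3, and ZNF288 (-0.19, -0.23 and -0.44). The mean of ZNF288 nearest to 0 rounded to 0.00. ZNF211 was the single zinc finger probe above 0 in all 9 replicates, at 0.03 to 0.87, and 16 of its 18 suffix means were above 0. In 24 hr replicate 1, however, 2 of 8 arrays were above 0, with a median of -0.08, and in 0 hr replicate 3 the median was -0.10 and the value -0.12 without its highest array. Probes above 0 in all 9 replicates were 0.893% of 112, against 0.702% of all tested probes (and 0 below 0 throughout, against 0.468%), and the signal of ZNF211 exceeded the negative controls in 14.7% of array channels.

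At 24 hr the higher ones were ZNF226 (0.31, 0.56 and 0.52), ZNF304 (0.14, 0.17 and 0.36), ZNF286 (0.17, 0.28 and 0.11) and ZNF173 (0.14, 0.19 and 0.13). ZNF226 and ZNF304 are KRAB proteins, and ZNF173 is TRIM26, a ubiquitin ligase of the TRIM family. The replicates of ZNF173 were the closest, with an SD of 0.03 around 0.15, but this probe never exceeded the negative controls. ZNF226 had the largest mean of the 4, 0.46 ± 0.13 (SD, n = 3), with an adjusted p of 0.724 by limma, and exceeded the controls on 2 of 16 arrays in neomycin RNA and on 0 in control RNA. The lower ones were ZNF174, ZNF142 (-0.48, -0.16 and -0.20) and the KRAB protein ZNF133 (-0.03, -0.21 and -0.27). ZNF142 kept all 6 signs under each of the 6 other ways of normalizing or filtering the arrays, the only one of the 15 that did. Leaving out the dim filter cannot change the signs of a tested probe, so that way was no check. With 1 array left out, the ZNF142 value in 24 hr replicate 2 ran from -0.34 to 0.03, so its sign was not kept.

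At 48 hr the higher ones were ZNF41 (0.91, 0.18 and 0.11), ZNF6 (0.76, 0.12 and 0.27) and ZNF147 (0.11, 0.16 and 0.30). ZNF41 is a KRAB protein encoded on the human X chromosome. ZNF147 is TRIM25, the ubiquitin ligase of the RIG-I antiviral pathway. ZNF41 and ZNF6 were highest in replicate 1, while ZNF147 was lowest there. Their means were 0.40 ± 0.44, 0.38 ± 0.34 and 0.19 ± 0.10 (SD, n = 3), with adjusted p of 0.784, 0.839 and 0.784 by limma. Among the 3, ZNF6 alone exceeded the controls on more than 1 array in either RNA at 48 hr.

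**Figure D3:**
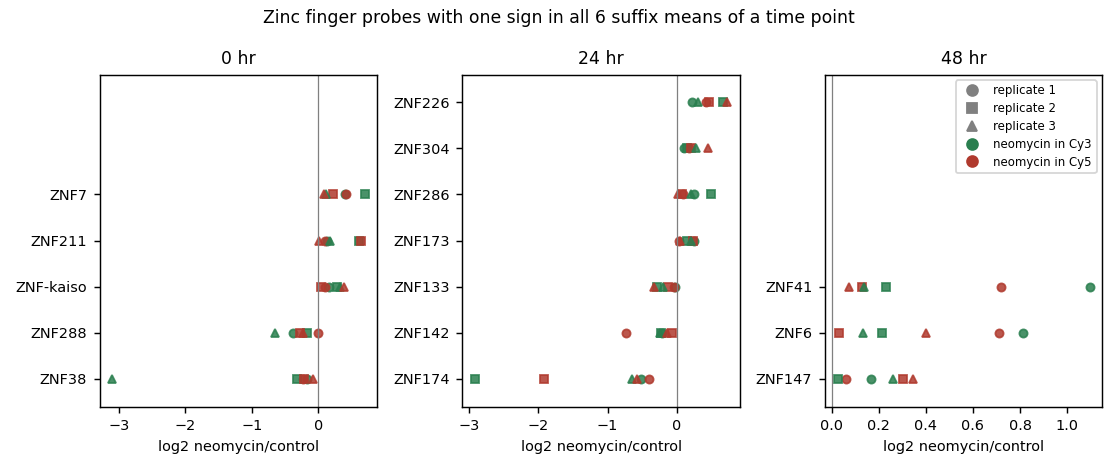
Suffix means of log2 neomycin over control for the 15 zinc finger probes with one sign in all 6 means at 0, 24 or 48 hr, with symbols for replicates 1 to 3 and colours for the dye of the neomycin RNA. Each panel has its own horizontal scale. All points of a probe lie on one side of 0, and those of ZNF38 and ZNF174 reach -3.10 and -2.91 in single means.

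The zinc finger probes stood higher as a group at 48 hr in replicate 1, without a test, since this replicate was singled out for it. Their median log2 ratio there was 0.34, with 76 of 112 above 0 (67.9%, against 41.1% of the 1170 other probes). It was -0.02 in replicate 2 and 0.04 in replicate 3. In the 6 replicates of 0 and 24 hr it ran from -0.05 to 0.12, and 24 hr replicate 1 was the highest of them. The 8 arrays of 48 hr replicate 1 did not move alike. The 4 with neomycin in Cy5 had zinc finger medians from 0.41 to 0.56. Of the 4 with neomycin in Cy3, 2 had 0.40 and 0.38 and the other 2 had -0.09 and -0.23.

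**Figure D4:**
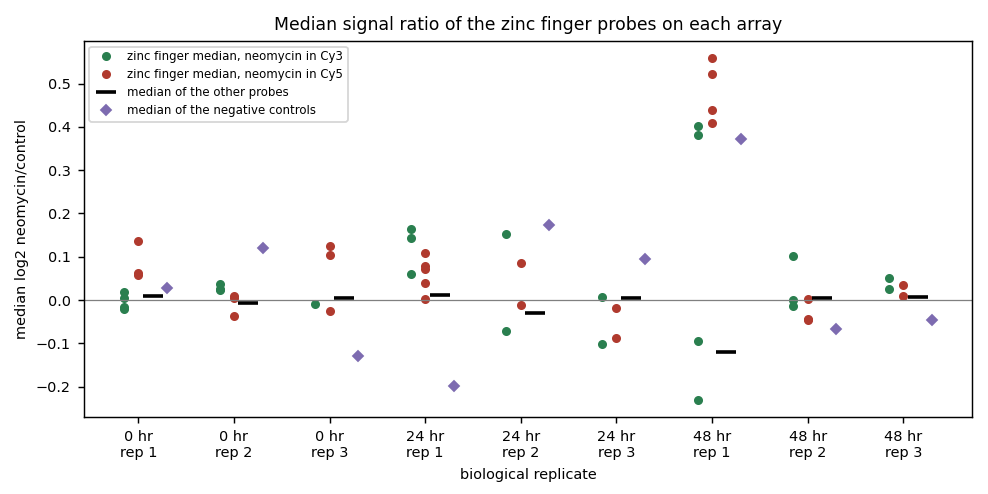
Median log2 neomycin over control ratio of the 112 tested zinc finger probes on each array, with green for neomycin in Cy3 and red for Cy5, beside the replicate median of the 1170 other probes (black bar) and of the 19 negative controls (purple diamond). In 48 hr replicate 1, 6 of 8 arrays lie between 0.38 and 0.56 and 2 lie below 0, while the negative controls stand at 0.37.

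A probe was taken to carry this shift when it was at least 1.2-fold higher in 48 hr replicate 1, with both suffix means above 0 and at least 7 of 8 arrays above 0. That held for 38 of 112 zinc finger probes (33.9%), against 16.8% of all tested probes and 15.2% of the others. The mirror condition, lower in the same way, held for 9 zinc finger probes (8.04%, against 22.1% of all). A further 22 probes reached 1.2-fold without meeting the condition on suffixes and arrays. With the same fold and suffix conditions and all but 1 array of a replicate above 0, the count in the other 8 replicates ran from 4 to 27 zinc finger probes higher. Of all tested probes, 2.89% to 18.1% met it in these replicates. The largest count, 27 (24.1%, against 18.1% of all), was in 24 hr replicate 2, a replicate of 4 arrays. The 48 hr replicates 2 and 3 gave 4 (3.57%, against 7.8% of all) and 5 (4.46%, against 4.99%).

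The carriers ranged from 0.34 for ZNFN1A1, now IKZF1, to 1.51 for ZNF151. No zinc finger probe met the conditions on suffixes and arrays with a value under the fold limit, so none lay just outside it. On 8 of 8 arrays above 0 were 16 of the 38, and 9 were at least 2-fold higher.

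The highest carrier was ZNF151, now ZBTB17 or MIZ-1, a BTB partner of MYC in repression. Its 8 arrays ran from 0.45 to 2.65 with a median of 1.53, all above 0. ZNF226 followed at 1.45 (arrays from 0.06 to 2.52), then ZNF16 at 1.24 (0.65 to 2.00) and the SCAN protein ZNF193 (arrays from 0.05 to 2.36, median 1.23). ZNF160 stood at 1.16, the KRAB protein ZNF234 at 1.12 and ZNF144 at 1.07, with all arrays above 0 in each. ZNF144 is PCGF2 or MEL18, a RING finger subunit of a Polycomb complex. The KRAB probe ZF5128 had 1.06, ZNF44 had 1.05 with 1 array below 0, at -0.19, and ZFY had 0.97 with 1 array at -0.08.

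Below the 10 highest, the other 28 carriers lay between 0.34 and 0.92. They included ZNF237, a MYM-type protein now called ZMYM5, at 0.92, ZNF41 at 0.91, ZNF7 at 0.85, ZNF90 at 0.73, ZNF254 at 0.69 and ZNF297, the BTB protein ZBTB22, at 0.60. At the other side, 9 probes were lower in the mirror sense. ZNF10 was the lowest at -1.34, followed by ZNF38 at -0.72, ZNF268 at -0.62, ZNF205 and ZNF12 at -0.54, ZNF261 at -0.44, ZNF207 at -0.35, ZFP91 at -0.33 and ZNF80 at -0.32. ZNF10, ZNF38 and ZFP91 are among the 10 probes seen most often above the controls. In 48 hr replicate 2 they had 0.46, 0.01 and 0.05, and in 48 hr replicate 3 they had -0.12, -0.26 and 0.04. ZNF237, ZNF297, ZNF205, ZNF12, ZNF261, ZNF207 and ZNF80 are named here after their values were seen.

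The highest carriers did not stand high in 48 hr replicates 2 and 3, which did not choose them. ZNF151 had -0.04 and -0.22 there, ZNF226 0.02 and -0.43, ZNF16 -0.07 and -0.29, and ZNF193 -0.04 and -0.19. ZNF160 had 0.22 and -0.01, ZNF234 -0.05 and 0.22, ZNF144 -0.13 and -0.04, ZF5128 -0.17 and 0.11, and ZNF44 -0.01 and -0.05. Of the 10 highest carriers only ZFY was above 0 in both, at 0.11 and 0.23. Over the 38 carriers the median was -0.07 in replicate 2, from -0.36 to 0.49, and 0.05 in replicate 3, from -0.43 to 0.49. In replicate 2, 13 of 38 were above 0 (34.2%, against 50.9% of all tested probes), and in replicate 3, 20 of 38 (52.6%, against 51.8%). Both were above 0 for 9 carriers and both below 0 for 14. The fold limit of 1.2 was reached by 1 carrier in replicate 2, ZNF90 at 0.49 (0.18 without its highest array), where 12.4% of all tested probes reached it, and by 3 in replicate 3, where 6.47% did. Outside 48 hr, the carriers' median was 0.09 in 0 hr replicate 1 and 0.05 in 24 hr replicate 1.

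**Figure D5:**
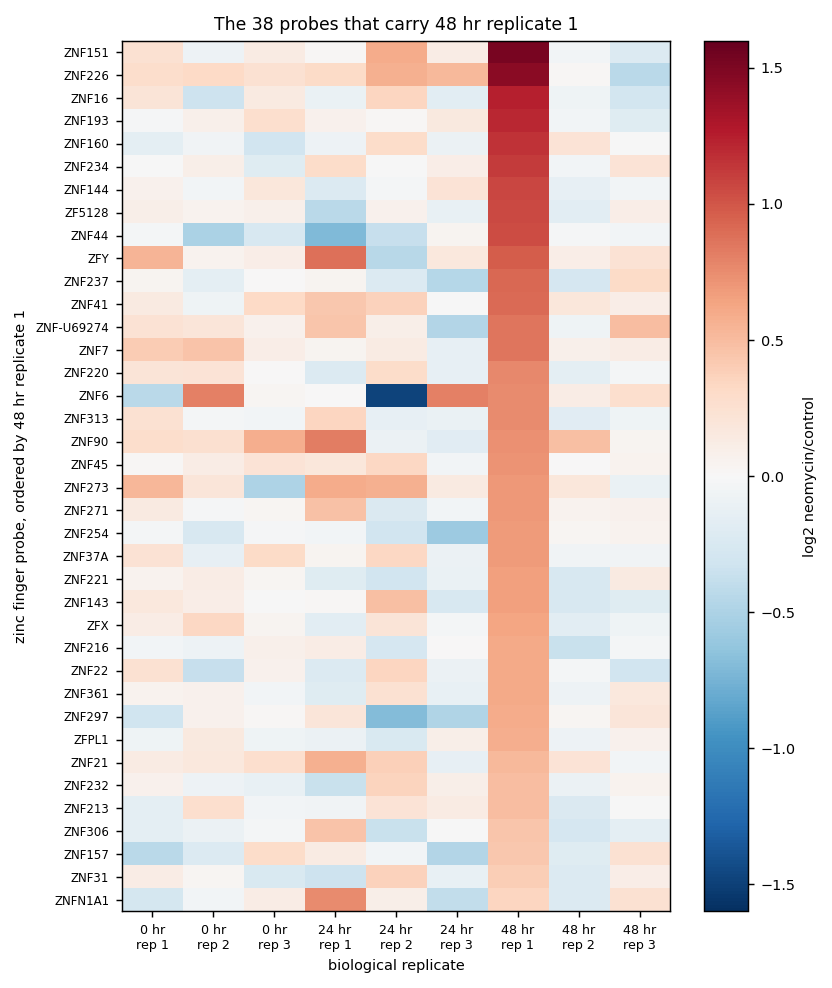
Log2 neomycin over control ratio of the 38 zinc finger probes that carry 48 hr replicate 1, ordered by that value, in all 9 biological replicates (red higher with neomycin, blue lower). The column of 48 hr replicate 1, which chose the probes, runs from 0.34 to 1.51, and the columns of 48 hr replicates 2 and 3 stay between -0.43 and 0.49.

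Several measures moved with the shift, and their part in it was not tested. The 19 negative controls, which match no gene, had a median log2 ratio of 0.37 in 48 hr replicate 1, against -0.20 to 0.17 in the other replicates, and 5 of the 19 met the carrier condition while 4 met its mirror. In 24 hr replicate 2, 7 of the 19 met it. Some of the 19 are mismatch variants of others, so these are not counts of independent sequences. In 48 hr replicate 1, zinc finger probes exceeded the controls in 4.51% of array channels of neomycin RNA and 1.82% of control RNA. In 48 hr replicates 2 and 3 it was 15.4% to 19.3%. In the replicates of 0 and 24 hr it was 7.14% to 14.4% in neomycin RNA and 3.71% to 13.5% in control RNA. Of the 38 carriers, 26 exceeded the controls on no array of the replicate in either RNA, 12 did on at least 1 array in neomycin RNA and 1 did in control RNA. That last was ZNF6, on 8 of 8 arrays in neomycin RNA and 3 of 8 in control RNA. For the other 37 the ratio compares a control signal, and for 26 of them both signals, that exceeded the limit of the negative controls on no array. No fold of RNA level is therefore drawn from that ratio.

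In 48 hr replicate 1 the correlation across probes between log2 ratio and mean intensity was -0.40 in the zinc finger probes and -0.32 in the others. Split into 4 equal bands of mean intensity, the zinc finger median was above that of the others in each band, at 0.50 and 0.23 in the dimmest, 0.22 and -0.06 in the next, 0.32 and -0.22 in the third, and -0.11 and -0.31 in the brightest. The share of carriers in the dimmest band was 39.1% of 46 zinc finger probes and 30.9% of 275 others, and in the next 32.4% of 34 and 16.4% of 286. In the third band it was 36.4% of 22 and 7.72% of 298. In the brightest it was 10% of 10 and 7.4% of 311, so the shares lay close together there, with few zinc finger probes. By column pair within a print block, pooled over all blocks, the zinc finger median was above that of the other probes in 10 of 12 pairs. The remaining pairs held 1 and 2 zinc finger probes. Position over the whole slide was not examined.

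By class of protein, the carriers were 13 of 33 tested KRAB probes (39.4%), 5 of 9 SCAN probes (55.6%) and 2 of 6 BTB/POZ probes (33.3%), beside 33.9% of all 112. All 3 probes for the related activators ZFX, ZFY and ZNF6 carried the shift, at 0.64, 0.97 and 0.76. ZFX and ZFY are close copies in human, so the same chicken RNA may bind to both probes. In 48 hr replicates 2 and 3, ZFX had -0.17 and -0.06 and ZFY 0.11 and 0.23. RING finger probes gave 2 of 7, ZNF144 and ZNF313, and other regulators 3 of 9, while probes not assigned to a class gave 8 of 37 (21.6%). Unassigned probes may belong to the classes above, so their share is not a contrast with those classes. The 3 regulators were ZNF220, the acetyltransferase KAT6A, ZNF143 and ZNF216. Of 4 probes for RNA-binding zinc finger proteins, 0 carried it, with a median of -0.02 in replicate 1. In replicate 2 the medians were 0.02 for KRAB, -0.04 for SCAN and -0.07 for BTB/POZ, and in replicate 3 they were 0.04, -0.01 and -0.10.

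The study sorted cochlear zinc finger genes into maps that peak late and other maps. It built these maps from these samples together with a laser lesion time course that is not analysed here, so they are not independent evidence of a direction. Of 61 probes in its late maps, 27 were tested here and the rest were dim. In 48 hr replicate 1, 17 of these 27 carried the shift (63%, against 16.8% of all tested probes), with a median of 0.66, and the median was 0.02 in replicate 2 and 0.11 in replicate 3. At 48 hr, 12 of the 27 were above 0 in all 3 replicates and 0 were below, beside 20.5% of all 112 zinc finger probes and 14.4% of all tested probes, and 1, ZNF6, kept all 6 signs. Of 19 probes in its other maps, 17 were tested, and 0 carried the shift, with medians of -0.25, 0.12 and 0.01 in the 3 replicates. None of either group passed at any time by limma.

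A table of the study that sets its time courses side by side lists 5 of these probes. ZNF90 was above 0 in all 48 hr replicates, at 0.73, 0.49 and 0.04, and in all 0 hr replicates, at 0.28, 0.26 and 0.58. It had 0.82, -0.10 and -0.19 at 24 hr. With 1 array left out, its 48 hr replicate 3 value ran from -0.02 to 0.10. ZNF93 was above 0 in all replicates at 0 hr (0.16, 0.16 and 0.30) and 48 hr (0.35, 0.19 and 0.09). Its 0 hr replicate 1 value ran from -0.08 to 0.61 with 1 array left out. ZNF75A had -0.04, 0.59 and 0.33 at 0 hr, 0.50, 0.65 and -0.42 at 24 hr, and 0.19, 0.13 and 0.05 at 48 hr. Its replicates lay on both sides of 0 at both earlier times. With 1 array left out, its 48 hr replicate 2 value ran from -0.03 to 0.23 and its replicate 3 value from -0.0007 to 0.11. ZNF79 had 0.06, 0.26 and -0.07 at 48 hr and was above 0 in all replicates at 24 hr, at 0.71, 0.40 and 0.06. With 1 array left out, its 24 hr replicate 3 value ran from -0.01 to 0.14. ZF5128 rested on 48 hr replicate 1, as given above. The 48 hr means of these 5 ran from 0.08 for ZNF79 to 0.42 for ZNF90, and the adjusted p by limma lay between 0.784 and 0.929. ZNF44 in that table is the updated name of a probe outside the group described here.

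The study also names ZFHX1B, ZFP106, ZNF123, ZNF175 and ZNF258 among cochlear genes, and these 5 are named here after their values were seen. ZNF123 had 0.62, 0.06 and 0.17 at 48 hr, without meeting the carrier condition in replicate 1, and an adjusted p of 0.784 by limma. The other 4 were dim and not tested. They lay between 1.11 and 1.52 in 48 hr replicate 1 and between -0.11 and 0.22 in replicates 2 and 3.

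Without replicate 1, 48 hr rested on 2 replicates. In all 4 of their suffix means, 7 of 112 zinc finger probes were higher (6.25%, against 5.07% of all tested probes) and 6 were lower (5.36%, against 6.55%). The higher ones were ZNF138, ZNF147, ZNF275, ZNF6, ZNF41, ZNF76 and ZNF9, the last a nucleic acid binding protein now called CNBP. They ranged from 0.01 for ZNF9 in replicate 3 to 0.31 for ZNF138 in replicate 2, the value that 1 array decided. The lower ones were ZFX, ZFP26, ZFP289, ZNF216, ZNF239 and ZNF306, down to -0.36 for ZNF216 in replicate 2. Of these 6, ZFX, ZNF216 and ZNF306 carried the shift in replicate 1.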

How the data were processed

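The arrays were spotted with 50-base oligonucleotides to human transcription factor genes, each probe in duplicate, and scanned in both dyes. Per the file headers, the deposited spot intensities are ImaGene 4.1 output, with a local background and no normalization. The authors also deposited a table of log2 ratios, which equals the log2 of the unnormalized signals on 51 of 51 arrays, and it served as an alternative only.

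Intensities were background-corrected (normexp, offset 50) and loess-normalized within each array in limma 3.58.1 (R 4.3.3). Ratios were turned to neomycin over control, spots of a probe averaged, and arrays averaged within each dye suffix and then over both suffixes, which gave 1 value per biological replicate. The dimmest 15% of gene probes were left out. limma was fitted over the 9 replicates, with Benjamini-Hochberg adjustment over 1282 probes and an adjusted p limit of 0.05. The fit was tested on simulated data with changes of 1 or 2 log2 units at 48 hr and the same replicate spread for every probe. It recovered 100% of the changes of each size, with 6 false calls. The real replicates of some probes differed far more, so the power behind the counts of 0 is not known from it. Per the study's methods, replicates were additional pools of epithelia. The precision is limited by the 3 biological replicates per time point, since the arrays of a replicate are technical copies.

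The 51 headers gave 14 quantification dates, and 1 date held more than 1 time point. Within it, the median over zinc finger probes of the 48 hr minus 0 hr difference was -0.04, and over the other probes 0.01. These compare plain means of 5 arrays at 0 hr and 6 at 48 hr, from 1 biological replicate each, without balancing the dyes. Probes were named as in the files, and current names are background. Domain classes were assigned from general knowledge of the human proteins. Named genes were those with one sign in all 6 means (up to 5 per direction), the 10 highest carriers, the 10 seen most often above the controls, the 3 with the smallest p per comparison, and 6 from a table of the study, where ZNF44 proved to be another probe. Other genes lie outside this set, and only some of them are marked in the text as named after their values were seen. The members, lists and rules were chosen with earlier results of these data known. Alternatives covered background, normalization, the dim filter, thresholds, the unit of replication and leaving out replicates or arrays.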

Additional observations from a re-analysis of the deposited data

Results flagged for a closer look

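Single arrays were examined by 3 measures in each of the 9 replicates, 27 looks in all. The measures were the zinc finger median log2 ratio and the counts above the controls in neomycin RNA and in control RNA. In 3 of the 27 looks, 1 array stood far from the other copies. Chance alone gives about 1 in 20 for a single look, but the looks share arrays, so no comparison with that rate is drawn. The zinc finger median log2 ratio on suffix 3 array 3 of 48 hr replicate 2 was 0.10, while the next of its 6 arrays stood at 0.00 and the lowest at -0.05. In neomycin RNA, 19 of 172 zinc finger probes exceeded the negative controls on suffix 3 array 3 of 0 hr replicate 1, against 9 to 13 on the other 6 arrays. On suffix 5 array 4 of 24 hr replicate 1 it was 47, against 2 to 20 on the other 7.

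Only the 38 named genes were examined for replicates all on one side of 0 at one time and all on the other at another. This held for 6 genes, and by limma none of their differences passed. These 6 had been named for one sign at a time or a small p in a contrast. Their count therefore does not describe all zinc finger probes. ZNF138 had the smallest p, with a mean log2 ratio of -0.12 at 0 hr, -0.28 at 24 hr and 0.20 at 48 hr, and differences of 0.48 from 24 to 48 hr and 0.32 from 0 to 48 hr. Its 48 hr replicate 2 value, 0.31, was -0.08 without 1 array at 2.09, and the 48 hr replicates then lay on both sides of 0. ZNF254 had -0.10, -0.31 and 0.26, and the differences were 0.57 and 0.36. ZNF147 differed by 0.38 between 0 hr (-0.19) and 48 hr (0.19). ZNF286 differed by -0.33 between 24 hr (0.19) and 48 hr (-0.14). From 0 to 24 hr, ZNF278 went from -0.15 to 0.20, a difference of 0.35, and ZNF173 from -0.09 to 0.15, a difference of 0.25. The adjusted p was 0.848 for each difference from 24 to 48 hr and 0.998 for the others. With 1 array left out, each of the 6 genes had at least 1 replicate value that changed sign. ZNF254 in 0 hr replicate 1 ran from -0.13 to 0.03, and ZNF147 in 48 hr replicate 1 from -0.01 to 0.22. ZNF286 in 48 hr replicate 2 ran from -0.11 to 0.07. ZNF278 in 24 hr replicate 1 ran from -0.07 to 0.21, and ZNF173 in 0 hr replicate 1 from -0.16 to 0.02.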

How the results depend on the processing

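Few zinc finger probes exceeded the negative controls, which limits these values. No probe passed at any time or in any contrast under other background corrections, median or scale normalization, the deposited ratios or no dim filter. The same held with a replicate left out and with the replicate number as a block (replicate block, 0 in each comparison). A one-sample t-test over the 3 replicate values of each time passed none after Benjamini-Hochberg. At an unadjusted p under 0.05 and 1.2-fold, that t-test gave 1 probe at 0 hr (ZNF226), 2 at 24 hr (ZNF226 and ZNF138) and 0 at 48 hr. Of all tested probes, 1.09%, 2.26% and 1.25% met these limits. The study ran its t-test over hybridizations, so these counts cannot be set against its calls. Samples that share only a replicate number correlated in their deviations by -0.16 to 0.06. With arrays as units and the replicate as a random block, 2 passed at 24 hr. With array weights added, 3 passed at 0 hr (ZNF76, ZNF75A and ZNF10, where 4.37% of all passed) and 2 at 24 hr (1.64% of all). With the quantification date as the block, 3 passed at 24 hr, 5 at 48 hr and 1 (ZNF44) in 48 hr minus 24 hr. Of all tested probes, 5.69%, 3.28% and 1.09% passed there. The count with one sign in 6 means at 0 hr, 5, became 13 with background subtraction, 1 with no background correction and 9 with the deposited ratios. At 24 hr, 7 became 4 with median centring. At 48 hr, 3 became 9 with the deposited ratios, 6 with no dim filter and 13 over replicates 2 and 3 alone, chosen after seeing the data as was the array left out or turned at 0 hr (5 and 7). Above the controls at their 99th percentile were 2 at 0 hr and 0 at 48 hr, and on 50% of arrays 5 at 24 hr and 13 at 48 hr. The 38 carriers became 83 of 172 with no dim filter (48.3%, against 21.9% of all), 9 at 2-fold, 34 to 41 under the other normalizations, and 36 to 54 with 1 array left out. The higher counts, 53 and 54, came without suffix 3 array 1 and array 3. Under the other normalizations and filters the zinc finger median of 48 hr replicate 1 was 0.17 to 0.59, and that of the negative controls 0.14 to 0.37. Single genes turned sign as follows, and the cause was not tested. With background subtraction ZNF286 had -0.68 at 24 hr, ZNF147 -0.030 at 48 hr and ZNF138 -0.0027 in 48 hr minus 24 hr. ZNF174 at 48 hr had 0.13 with median centring, 0.048 with subtraction, 0.12 uncorrected and 0.14 with the deposited ratios, where ZNF79 had -0.026. With 1 of the 48 hr replicates left out, ZNF10 ran from -0.73 to 0.17, ZFP91 from -0.14 to 0.045, ZNF174 from -0.10 to 0.040, ZNF76 from -0.027 to 0.13, ZNF43 from -0.15 to 0.032, ZNF79 from -0.0094 to 0.16, ZNF44 from -0.029 to 0.52 and ZF5128 from -0.032 to 0.58. With each array of a replicate left out in turn, added after seeing the data, ZNF138 in 48 hr replicate 2 ran from -0.076 to 0.51, ZNF74 in 24 hr replicate 3 from -0.059 to 1.33, ZNF211 in 24 hr replicate 1 from -0.036 to 0.30 and in 0 hr replicate 3 from -0.12 to 0.20.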
